A study of Homo sapiens with 9 samples.

Results

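The genes described here encode 10 proteins that fold, monitor or dispose of proteins in the endoplasmic reticulum (ER), or that switch on the genes that do so. They are HSPA5, HSP90B1, DNAJB9, DNAJC3, SEL1L, HERPUD1, XBP1, EDEM1, PDIA4 and SDF2L1, of the 16279 genes named on the array. Every oligonucleotide probe that carried 1 of these symbols was taken, whatever its values, which gave 15 of the 35328 probes on the array. Of these, 12 probes for 9 genes were named by the platform annotation and 3 (the SDF2L1 probe and a pair for DNAJC3) through the transcript accession. HSP90B1, DNAJC3, SEL1L and HERPUD1 had several probes, which are lettered from the brightest, and 1 further probe that matched DNAJB9 together with other genes was left out. All 15 had enough signal to be tested, and 14 had a ratio on all 9 arrays.

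The arrays compared SKbr3, a line of human breast cancer cells with amplified HER2, transfected with an siRNA against TRMT12 with the same line given a control siRNA. TRMT12 is an enzyme that helps to make wybutosine, a bulky modified base of the phenylalanine transfer RNA next to its anticodon. There were 3 TRMT12 siRNAs, each on 3 two-colour arrays, with the knockdown sample in Cy5 on arrays 1 and 2 and the dyes exchanged on array 3. According to the series text 1 control siRNA served all comparisons, whereas in the labels the control bears the number of its TRMT12 siRNA. The siRNA comparisons may therefore share control RNA. No fit allowed for this, and the comparison across siRNAs treated its 3 values as independent. Neither the dose, the time after transfection nor the cultures behind each hybridisation were stated in the labels, so p-values within an siRNA measure only how hybridisations varied, and that variation may be technical.

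Proteins that enter the ER are folded by the Hsp70 chaperone HSPA5 (BiP) and the Hsp90 chaperone HSP90B1 (GRP94), helped by co-chaperones and by disulfide isomerases. When unfolded proteins build up, the sensors ERN1 (IRE1), EIF2AK3 (PERK) and ATF6 start the unfolded protein response, in which the spliced form of XBP1 and cleaved ATF6 raise chaperone and degradation genes and EIF2AK3 slows translation. Proteins that fail to fold leave through ER-associated degradation, in which SEL1L and HERPUD1 belong to the membrane complex that exports them.

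Cleaved ATF6 with the factor NF-Y, and XBP1, are known to act through ER stress elements in promoters. Exact matches were searched for on both strands of the RefSeq promoter table of GRCh38.p14, which gives 250 bases before and 50 from the annotated start, and which held 12 promoters for the 10 genes. The letters searched were CCAAT and, after a gap of 9 bases, CCACG for the ER stress element (ERSE), ATTGG and, after a gap of 1 base, CCACG for ERSE-II, and TGACGTG for the core of the unfolded protein response element. The promoters below are shown because 5 of them hold a match and because DNAJB9 and SEL1L, which do not, had the highest estimates with siRNA 1. Capitals mark the fixed letters of a match, and each promoter is written 5′ to 3′ on the strand of its gene.
HSPA5 (chr9:125241294-125241593, - strand): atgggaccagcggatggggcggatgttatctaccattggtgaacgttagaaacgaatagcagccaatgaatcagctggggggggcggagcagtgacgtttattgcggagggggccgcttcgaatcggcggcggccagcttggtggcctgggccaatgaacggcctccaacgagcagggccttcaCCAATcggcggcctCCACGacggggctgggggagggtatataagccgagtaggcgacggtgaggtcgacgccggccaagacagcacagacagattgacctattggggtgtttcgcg
HSP90B1 (chr12:103930160-103930459, + strand): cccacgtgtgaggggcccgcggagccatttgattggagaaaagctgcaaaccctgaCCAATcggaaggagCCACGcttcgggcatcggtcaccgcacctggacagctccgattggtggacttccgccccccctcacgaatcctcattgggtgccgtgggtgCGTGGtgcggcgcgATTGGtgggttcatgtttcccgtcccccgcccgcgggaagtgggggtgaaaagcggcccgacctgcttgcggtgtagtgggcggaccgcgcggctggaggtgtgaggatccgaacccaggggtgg
XBP1 (chr22:28800520-28800819, - strand): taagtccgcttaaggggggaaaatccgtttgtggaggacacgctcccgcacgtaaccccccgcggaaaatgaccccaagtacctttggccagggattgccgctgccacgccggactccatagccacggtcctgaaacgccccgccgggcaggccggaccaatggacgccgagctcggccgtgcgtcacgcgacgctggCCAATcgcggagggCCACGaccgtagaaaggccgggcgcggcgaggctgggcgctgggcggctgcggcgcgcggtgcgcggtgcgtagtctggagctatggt
HERPUD1 (chr16:56931892-56932191, + strand): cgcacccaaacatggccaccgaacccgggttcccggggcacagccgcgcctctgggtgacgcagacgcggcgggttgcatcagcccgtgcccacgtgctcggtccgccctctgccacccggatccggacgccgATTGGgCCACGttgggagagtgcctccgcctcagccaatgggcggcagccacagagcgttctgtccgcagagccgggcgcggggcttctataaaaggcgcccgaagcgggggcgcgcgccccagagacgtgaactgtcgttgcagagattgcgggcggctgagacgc
SDF2L1 (chr22:21642052-21642351, + strand): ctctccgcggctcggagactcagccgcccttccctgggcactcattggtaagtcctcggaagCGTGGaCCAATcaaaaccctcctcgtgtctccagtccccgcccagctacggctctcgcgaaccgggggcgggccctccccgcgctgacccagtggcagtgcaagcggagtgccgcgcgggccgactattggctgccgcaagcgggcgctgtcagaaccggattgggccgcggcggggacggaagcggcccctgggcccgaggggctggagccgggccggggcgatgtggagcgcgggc
DNAJB9 (chr7:108569624-108569923, + strand): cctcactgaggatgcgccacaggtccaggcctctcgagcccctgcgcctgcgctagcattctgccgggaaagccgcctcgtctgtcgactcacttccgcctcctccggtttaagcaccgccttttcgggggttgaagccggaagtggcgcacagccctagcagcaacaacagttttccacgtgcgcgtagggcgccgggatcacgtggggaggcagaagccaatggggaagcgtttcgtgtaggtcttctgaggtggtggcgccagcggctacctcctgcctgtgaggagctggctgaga
SEL1L (chr14:81533804-81534103, - strand): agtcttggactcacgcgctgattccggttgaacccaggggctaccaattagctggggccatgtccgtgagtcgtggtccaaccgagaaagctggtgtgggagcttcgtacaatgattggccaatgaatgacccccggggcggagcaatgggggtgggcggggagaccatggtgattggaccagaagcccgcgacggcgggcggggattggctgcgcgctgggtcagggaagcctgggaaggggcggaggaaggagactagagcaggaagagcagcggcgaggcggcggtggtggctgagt

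An ERSE match was found in 27 of 35116 promoters (0.0769%), among them those of HSPA5, HSP90B1 and XBP1. It lay at -66 to -48 from the start site in HSPA5, at -194 to -176 and, on the other strand, at -89 to -71 in HSP90B1, and at -52 to -34 in XBP1. ERSE-II was found in 19 promoters (0.0541%), with a match at -117 to -107 in HERPUD1 and on the other strand at -188 to -178 in SDF2L1. TGACGTG was present in 692 promoters (1.97%) and in 0 of the 12 shown or searched for these genes. The short parts of the element were common: CCAAT stood in 11 of the 12 promoters against 34.6% of all, and CCACG in 12 of 12 against 38.1%. A match describes the letters only, and the map of these matches places them within the 300 bases.

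**Figure D1:**
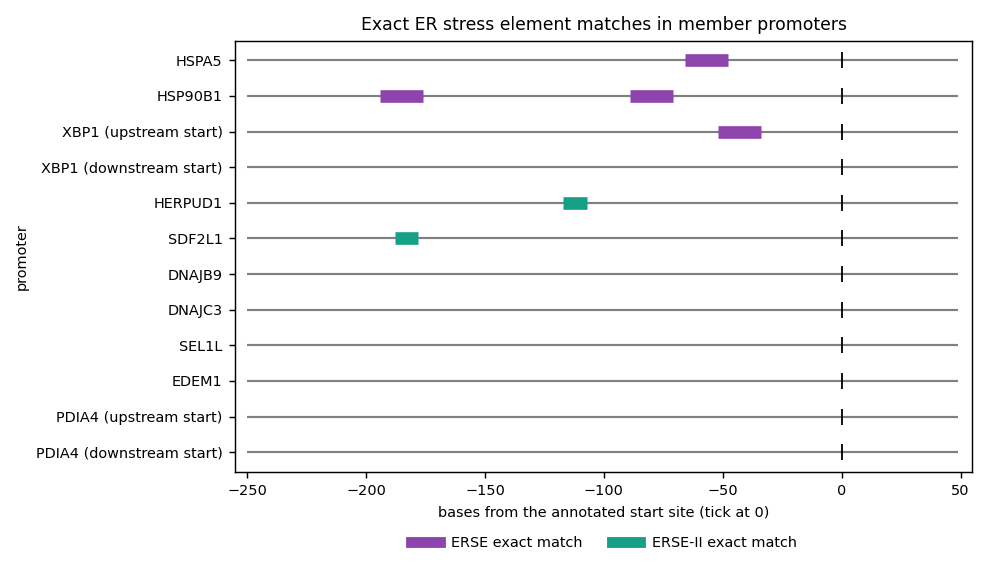
Positions of exact ERSE and ERSE-II matches in the 12 RefSeq promoters of the 10 genes, in bases from the annotated start site. The genes with a match are HSPA5, HSP90B1, XBP1, HERPUD1 and SDF2L1, with 2 matches in HSP90B1 and 1 in each of the others.

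TRMT12 itself was lower on all 9 arrays, with dye-adjusted log2 ratios of knockdown over control of -2.62, -2.51 and -2.46 for siRNA 1, 2 and 3 (adjusted p of 5.12e-05, 6.84e-05 and 7.77e-05 in limma). Ratios of all probes were correlated between arrays of the same siRNA and dye orientation (r of 0.406 to 0.686) and between arrays of different siRNAs with the same orientation (0.273 to 0.617). Between opposite orientations r was 0.0354 to 0.203 within an siRNA and -0.0899 to 0.0904 between siRNAs, so the arrays fell together by dye orientation more than by siRNA. Between 2.57% and 24.4% of probes gave no ratio on an array. Brightest probes of the SKbr3 and epithelial markers ERBB2, GRB7, KRT8, KRT18, KRT19, EPCAM, CDH1 and FOXA1 were above background on all 9 arrays. Of other cell types' markers, COL1A1, COL1A2, PDGFRB and PTPRC also were on 9 arrays, VWF on 8, LYZ on 7, and PECAM1 and CD3E on 4. The same limit was passed by 62.2% to 100% of the 188 randomised control oligonucleotides on an array, so it does not separate an expressed gene from background.

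With each siRNA more of the ER probes were called higher than lower in the fit reported here, and how many passed depended on how the ratios were scaled. Here and below an estimate is the log2 ratio of knockdown over control from a limma fit on all 9 arrays, with a coefficient for each siRNA and for the dye, and a probe is called when its Benjamini-Hochberg adjusted p over 28259 probes was under 0.05. With siRNA 1, 12 of the 15 probes were called, all higher, where 11.6% of all tested probes were called higher (22.9% in either direction). With siRNA 2, 7 were called higher and 1 lower, against 10.5% and 9.74% of all probes (20.2% together). With siRNA 3, 6 were called higher and 2 lower, against 9.9% and 10.1% (20% together). These shares are over probes of any brightness, and most ER probes were brighter than the median tested probe. Of 21395 probes with signal in both channels on all arrays, 3582 were called higher and 3617 lower with siRNA 1. With siRNA 2 it was 3552 and 3245, and with siRNA 3 it was 3230 and 3411. Of the 13 ER probes in that setting, 11, 7 and 5 were called higher and 0, 1 and 2 lower. The median estimate of the 15 was 0.49, 0.25 and 0.20 for the 3 siRNAs, while that of all tested probes was -0.01, 0.02 and 0.00. The split of calls over all probes moved with the scaling, from 3284 higher and 3183 lower to 1538 and 3472 with median centring and 2306 and 3647 with the authors' ratio for siRNA 1. For siRNA 2 it went from 2967 and 2753 to 1099 and 1111 with median centring and 1481 and 2238 with the authors' ratio, and for siRNA 3 from 2799 and 2857 to 806 and 2525 with median centring and 1475 and 3084 with the authors' ratio. With median centring the ER probes called were 6 with siRNA 1 and 4 with siRNA 2, all higher, and 2 with siRNA 3, 1 higher and 1 lower. The medians of the 15 were then 0.34, 0.30 and 0.13.

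The comparison across siRNAs took a single dye-balanced value from each siRNA, so that the siRNA and not the hybridisation was the replicate. In it 0 of 15 probes were called, where 0.00354% of all probes were (1 probe, TRMT12), while 10 of the 15 had an unadjusted p under 0.05 against 23.4% of all probes. The nearest to the threshold were SEL1L a with a mean of 0.77 (SE 0.114, adjusted p = 0.0834), HSPA5 with 0.47 (SE 0.08, adjusted p = 0.0843) and DNAJB9 with 0.66 (SE 0.125, adjusted p = 0.0901). Under 3 alternative settings some of these passed, as described at the gene concerned. An exact sign-flip test of 3 values cannot go below p = 0.25.

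**Figure D2:**
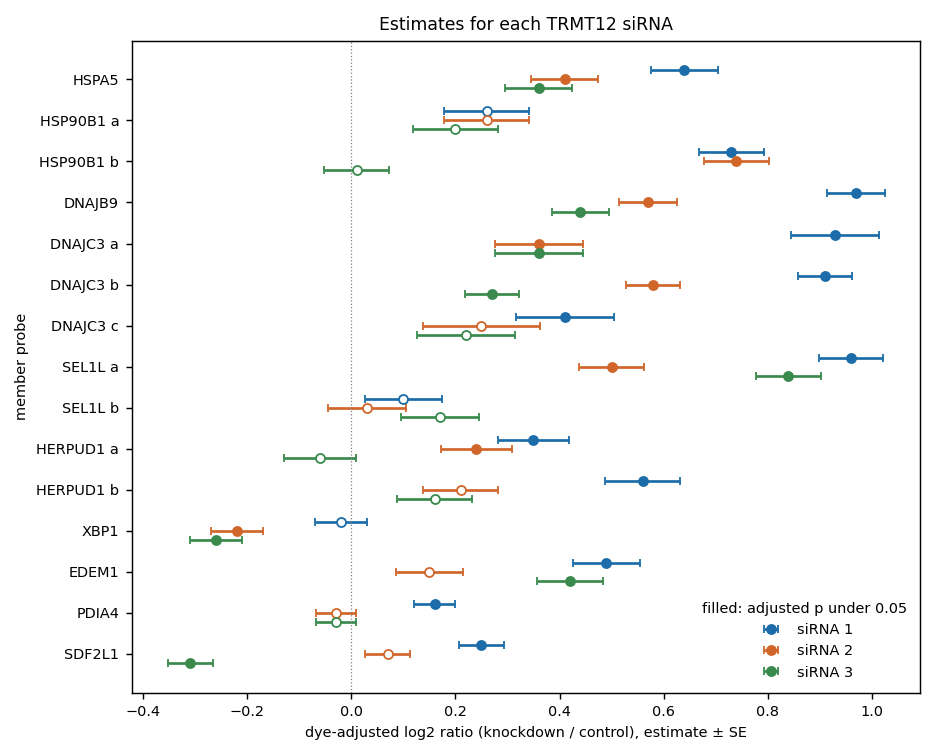
Dye-adjusted log2 ratio of knockdown over control (estimate ± SE from the fit on 9 arrays) for the 15 probes and the 3 siRNAs; filled points had an adjusted p under 0.05. DNAJB9, SEL1L a, HSPA5 and the DNAJC3 a and b probes lie right of 0 with each siRNA, XBP1 at or left of it.

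DNAJB9 (ERdj4), a J-domain co-chaperone that supports HSPA5 and binds ERN1, had the highest estimate with siRNA 1. Its log2 ratios on arrays 1 to 3 were 1.04, 0.95 and 0.97 with siRNA 1, 0.60, 0.63 and 0.55 with siRNA 2, and 0.57, 0.53 and 0.26 with siRNA 3. All 9 were positive, and the siRNA 1 arrays lay above the others without overlap. The estimates were 0.97 (SE 0.055, 1.96-fold, adjusted p = 0.000237), 0.57 (1.49-fold, adjusted p = 0.00116) and 0.44 (1.35-fold, adjusted p = 0.003). The siRNA 3 estimate was lower than that of siRNA 1 by a tested difference of -0.53 (adjusted p = 0.0121). For siRNA 2 against siRNA 1 the difference of -0.40 was not called (adjusted p = 0.0513). Median centring lowered the siRNA 3 estimate to 0.29 and ended its call (adjusted p = 0.0513). Across siRNAs DNAJB9 passed with normexp background correction (adjusted p = 0.0463), with signal required in both channels on all arrays (0.0291) and without low-quality spots (0.033).

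DNAJC3 (p58IPK), a J-domain co-chaperone of HSPA5 that also inhibits EIF2AK3, was read by 3 probes. Probe a had 0.79, 0.74 and 1.19 on the siRNA 1 arrays, 0.27, 0.40 and 0.35 with siRNA 2, and 0.26, 0.44 and 0.31 with siRNA 3. Probe b had 0.98, 0.97 and 0.86, then 0.56, 0.73 and 0.53, then 0.40, 0.39 and 0.11. In both probes every array was positive and the siRNA 1 arrays were the highest. Estimates for probe a were 0.93 (SE 0.0846, 1.91-fold, adjusted p = 0.00074), 0.36 (adjusted p = 0.0271) and 0.36 (adjusted p = 0.0275). For probe b they were 0.91 (SE 0.0519, 1.88-fold, adjusted p = 0.000237), 0.58 (adjusted p = 0.000913) and 0.27 (adjusted p = 0.0128). Probe c was dim, with a mean log2 intensity of 6.84 against a median of 8.64 over tested probes, and had no ratio on array 2 of siRNA 2. Its estimates were 0.41, 0.25 and 0.22, called only with siRNA 1 (adjusted p = 0.0279). That call was lost without array 1, 2 or 3 of siRNA 1 (adjusted p of 0.0519, 0.0944 and 0.234) or any siRNA 3 array (0.0528 to 0.0592). It was also lost with median centring (0.68, adjusted p = 0.0611), with the authors' ratio (0.73, adjusted p = 0.0659), in the fit without a dye term (0.39, adjusted p = 0.0514) and on the Cy5 arrays alone (0.26, adjusted p = 0.0948).

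The weaker DNAJC3 calls rested on few arrays and on the scaling. The siRNA 2 call of probe a was lost without any 1 of the 3 siRNA 2 arrays (adjusted p of 0.0756 to 0.0908) or array 1 of siRNA 3 (0.0516), and its siRNA 3 call without any siRNA 3 array (0.0716 to 0.131) or array 1 of siRNA 1 (0.0501). The siRNA 3 call of probe b was lost without array 1 (adjusted p = 0.0761) or array 2 (0.0702) of siRNA 3. With siRNA 3, median centring left 0.21 in a (adjusted p = 0.141) and 0.13 in b (adjusted p = 0.3), and the authors' ratio 0.25 (adjusted p = 0.0673) and 0.16 (adjusted p = 0.0859), none called. Omitting the dye term ended the siRNA 2 call of a (adjusted p = 0.0628) and the siRNA 3 calls of a (0.0662) and b (0.0526). The difference between siRNA 3 and siRNA 1 was called in both probes, at -0.58 (adjusted p = 0.0306) in a and -0.64 (adjusted p = 0.00732) in b. Across siRNAs probe b passed with signal in both channels on all arrays (adjusted p = 0.0429) and without low-quality spots (0.0476).

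HSPA5, the central ER chaperone and a widely used readout of the response, was higher on every array. Its log2 ratios were 0.53, 0.51 and 0.72 with siRNA 1, 0.19, 0.26 and 0.64 with siRNA 2, and 0.36, 0.10 and 0.49 with siRNA 3. In each siRNA the dye-swapped array 3 was the highest, and the siRNA 1 arrays overlapped those of siRNA 2 but lay just above those of siRNA 3. HSPA5 rose 1.55-fold with siRNA 1 (0.64, SE 0.0646, adjusted p = 0.00108), 1.33-fold with siRNA 2 (0.41, adjusted p = 0.00662) and 1.29-fold with siRNA 3 (0.36, adjusted p = 0.00953). Its dye term, the ratio with the knockdown in Cy5 minus that with it in Cy3, was -0.30 (SE 0.0775, adjusted p = 0.031). On the Cy5 arrays alone the estimates were 0.22 with siRNA 2 (adjusted p = 0.111) and 0.23 with siRNA 3 (adjusted p = 0.127), and the call also ended without array 3 in siRNA 2 (0.34, adjusted p = 0.0631) and siRNA 3 (0.39, adjusted p = 0.0732). Median centring ended both calls too, at 0.38 with siRNA 2 (adjusted p = 0.0684) and 0.22 with siRNA 3 (adjusted p = 0.22), as did omitting the dye term (adjusted p of 0.0835 and 0.129). The authors' ratio ended that of siRNA 3 (0.26, adjusted p = 0.0789). Across siRNAs it passed with normexp (adjusted p = 0.0399), with signal in both channels (0.0265) and without low-quality spots (0.0288).

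The 2 probes of HSP90B1, the ER Hsp90, did not move together, with r = -0.0416 over the 9 arrays. Probe b had 1.12, 1.05 and 0.34 with siRNA 1, 0.98, 1.18 and 0.39 with siRNA 2, and 0.25, 0.31 and -0.21 with siRNA 3. The dye-swapped array was the lowest each time. The estimates were 0.73 (SE 0.0623, 1.66-fold, adjusted p = 0.000626), 0.74 (1.67-fold, adjusted p = 0.000764) and 0.01 (adjusted p = 0.947), with a dye term of 0.64 (adjusted p = 0.00269). The siRNA 3 estimate was below those of siRNA 1 and siRNA 2, by -0.72 (adjusted p = 0.00862) and -0.73 (adjusted p = 0.00771). Probe a lay between 0.05 and 0.44 on the 9 arrays, with estimates of 0.26, 0.26 and 0.20 that were not called (adjusted p of 0.0679, 0.0652 and 0.151). Its siRNA 1 and siRNA 2 estimates passed with normexp, with signal in both channels and without low-quality spots (adjusted p of 0.0199 to 0.0458), and that of siRNA 1 without array 2 of siRNA 2 (0.0317).

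The gene table lists pseudogene copies of HSPA5, HSP90B1 and XBP1, and whether their probes also read those copies was not tested. Likewise, whether the HSP90B1 probes read different transcripts cannot be seen here, since probe sequences were not used.

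**Figure D3:**
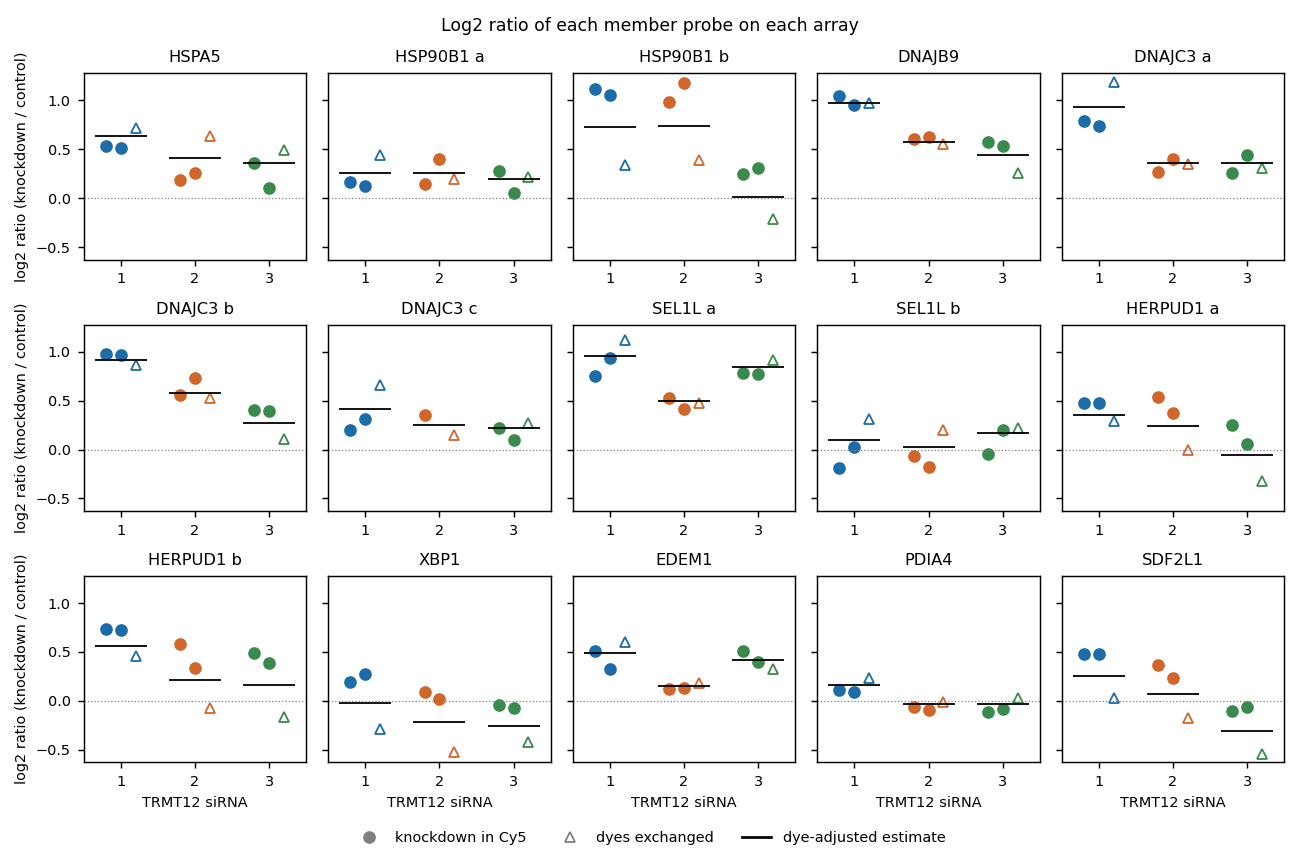
Log2 ratio of knockdown over control on each array for the 15 probes, by siRNA; circles are arrays with the knockdown in Cy5, triangles the dye-swapped arrays, and bars the dye-adjusted estimates. DNAJB9, SEL1L a and DNAJC3 a and b are positive on 9 of 9 arrays, and in HSP90B1 b, HERPUD1 a and b, XBP1 and SDF2L1 the triangle is the lowest point for each siRNA.

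SEL1L, the adaptor of the HRD1 ubiquitin ligase in ER-associated degradation, had the highest estimate of the 15 with siRNA 3. On probe a the log2 ratios were 0.75, 0.94 and 1.12 with siRNA 1, 0.53, 0.41 and 0.48 with siRNA 2, and 0.78, 0.77 and 0.91 with siRNA 3. All arrays were positive, and the siRNA 2 arrays lay below those of both other siRNAs. SEL1L a rose 1.95-fold (0.96, SE 0.0619, adjusted p = 0.000309), 1.41-fold (0.50, adjusted p = 0.00284) and 1.8-fold (0.84, adjusted p = 0.000938). The difference between siRNA 2 and siRNA 1 was called at -0.46 (adjusted p = 0.0473), while the gap of 0.35 between siRNA 3 and siRNA 2 was not (adjusted p = 0.0515). That -0.46 was no longer called when any 1 of the 9 arrays was left out, with median centring, with the authors' ratio, without the dye term or on the Cy5 arrays alone. Median centring (0.46, adjusted p = 0.135) and the authors' ratio (0.44, adjusted p = 0.166) each ended the siRNA 2 call. Across siRNAs it passed with normexp (0.70, adjusted p = 0.0371) and without low-quality spots (0.77, adjusted p = 0.0256).

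SEL1L b did not follow. Its ratios ran from -0.19 to 0.31, 5 of 9 were positive, and the estimates were 0.10, 0.03 and 0.17 (adjusted p of 0.405, 0.776 and 0.17). Mean log2 intensity was 8.55 for a and 7.87 for b, against a median of 8.64 over tested probes. On array 2 of siRNA 3 the control signal of probe a was only 26.7 units above background. That was under its background SD of 29.6, so probe a fell out of the setting with signal in both channels on all arrays.

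HERPUD1, a stress-induced membrane protein of the same degradation complex, was read by 2 bright probes that varied alike (r = 0.898 over 9 arrays). Probe b had 0.73, 0.72 and 0.46 with siRNA 1, 0.58, 0.34 and -0.07 with siRNA 2, and 0.49, 0.39 and -0.16 with siRNA 3. Probe a had 0.48, 0.48 and 0.29, then 0.54, 0.37 and 0.00, then 0.25, 0.06 and -0.32. With every siRNA the dye-swapped array was the lowest. Both probes rose with siRNA 1, by 0.35 in a (SE 0.0688, adjusted p = 0.0121) and 0.56 in b (SE 0.072, adjusted p = 0.00261). With siRNA 2, a was called at 0.24 (adjusted p = 0.0494) and b had 0.21 (adjusted p = 0.09). With siRNA 3 the estimates were -0.06 and 0.16, neither called. The siRNA 2 call of a ended without any 1 of the 9 arrays (adjusted p of 0.0531 to 0.155), and its siRNA 1 call without array 3 of siRNA 1 (0.25, adjusted p = 0.144), with median centring (0.14, adjusted p = 0.41), with the authors' ratio (0.19, adjusted p = 0.181) and without the dye term (0.42, adjusted p = 0.0802). The siRNA 1 call of b ended with median centring (0.34, adjusted p = 0.0641). Probe b gained a call with siRNA 2 without low-quality spots (0.20, adjusted p = 0.0437). On the Cy5 arrays alone, where the dye cannot be adjusted for, b was called with siRNA 2 (0.46, adjusted p = 0.0241) and siRNA 3 (0.44, adjusted p = 0.0354).

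EDEM1, a lectin-like protein that hands misfolded glycoproteins to degradation and a known target of XBP1, had 0.51, 0.33 and 0.60 with siRNA 1, 0.12, 0.13 and 0.18 with siRNA 2, and 0.51, 0.40 and 0.33 with siRNA 3. All were positive, and the siRNA 2 arrays lay below the rest. EDEM1 rose 1.4-fold with siRNA 1 (0.49, SE 0.064, adjusted p = 0.00278) and 1.34-fold with siRNA 3 (0.42, adjusted p = 0.00574), and with siRNA 2 it had 0.15 (adjusted p = 0.147). The difference of siRNA 2 from siRNA 1 was not called (-0.34, adjusted p = 0.105). With median centring both calls were lost, at 0.31 (adjusted p = 0.0554) and 0.27 (adjusted p = 0.101).

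XBP1, whose spliced messenger RNA encodes the main transcription factor of the ERN1 branch, was the only gene of the 10 with 0 calls higher. A single probe cannot tell the spliced from the unspliced form. Its log2 ratios were 0.19, 0.27 and -0.29 with siRNA 1, 0.09, 0.02 and -0.52 with siRNA 2, and -0.04, -0.07 and -0.42 with siRNA 3. The negative values lay mainly on the dye-swapped arrays. The estimates were -0.02 (adjusted p = 0.799), -0.22 (SE 0.0499, adjusted p = 0.0258) and -0.26 (adjusted p = 0.0133), and the dye term was 0.49 (adjusted p = 0.00314). On the Cy5 arrays alone they were 0.23, 0.05 and -0.06, none called. The siRNA 2 call also ended without array 3 of siRNA 1 (adjusted p = 0.0509) or any siRNA 2 array (0.051 to 0.175), and that of siRNA 3 without its array 1 or 2 (0.0748 each). With median centring neither was called, at -0.17 (adjusted p = 0.347) and -0.39 (adjusted p = 0.0638), nor without the dye term, at -0.14 (adjusted p = 0.601) and -0.18 (adjusted p = 0.591). The authors' ratio ended the siRNA 2 call (-0.19, adjusted p = 0.197). On the 3 dye-swapped arrays the control channel of XBP1 read 49350, 49267 and 49355 units, nearly the same value, while the highest control signals on those arrays were 64625, 64478 and 64917.

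SDF2L1, a stress-induced ER protein that works with HSPA5 and its co-chaperones, moved in opposite directions between siRNAs. It had 0.48, 0.48 and 0.03 with siRNA 1, 0.37, 0.23 and -0.17 with siRNA 2, and -0.10, -0.06 and -0.54 with siRNA 3. The siRNA 1 arrays were all positive and the siRNA 3 arrays all negative. SDF2L1 rose 1.19-fold with siRNA 1 (0.25, SE 0.0434, adjusted p = 0.00723), had 0.07 with siRNA 2 (adjusted p = 0.311) and fell with siRNA 3 to 80.8% of control (-0.31, adjusted p = 0.0043). The tested differences of siRNA 3 were -0.56 from siRNA 1 (adjusted p = 0.00663) and -0.37 from siRNA 2 (adjusted p = 0.0149). Its dye term was 0.46 (adjusted p = 0.00246), and the siRNA 1 call ended with median centring (0.05, adjusted p = 0.763), with the authors' ratio (0.10, adjusted p = 0.357) and without array 3 of siRNA 1 (0.25, adjusted p = 0.0809). The siRNA 3 call ended on the Cy5 arrays alone (-0.08, adjusted p = 0.427), and without the dye term neither was called (adjusted p of 0.194 and 0.417).

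PDIA4 (ERp72), a disulfide isomerase, varied over the narrowest range of the 15 probes, from -0.11 to 0.23. The estimates were 0.16 (SE 0.0389, 1.12-fold, adjusted p = 0.0267), -0.03 and -0.03 (adjusted p of 0.559 and 0.66). The siRNA 1 estimate turned to -0.01 with median centring, and its call also ended with the authors' ratio (0.04, adjusted p = 0.666), without the dye term (0.14, adjusted p = 0.187), on the Cy5 arrays alone (0.10, adjusted p = 0.249), without any siRNA 1 array (0.0859 to 0.195) and without array 1 or 3 of siRNA 3 (0.0509 and 0.0501).

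In each difference called in the reported fit, the later-numbered siRNA was the lower. The difference siRNA 3 minus siRNA 1 was called in 6 of the 15 probes, all lower, where 9.26% of all probes were called (4.99% lower). For siRNA 3 minus siRNA 2 it was 3 probes, all lower (10.2% of all probes, 4.86% lower), and for siRNA 2 minus siRNA 1 it was SEL1L a alone (2.62%, 1.61% lower). The remaining knockdown of TRMT12 itself was not shown to differ, with siRNA 3 minus siRNA 1 at 0.16 (adjusted p = 0.329).

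The dye term was called in 6 of the 15 probes, 29.2% of all probes having such a call. It was positive in HSP90B1 b, both HERPUD1 probes, XBP1 and SDF2L1, which all had a mean log2 intensity of 14 or more, and negative in HSPA5. Among the 1233 tested probes of that brightness, 74.7% had a called dye term, with a median of 0.02. HSP90B1 a was as bright as XBP1 and had a dye term of -0.09 (adjusted p = 0.509). DNAJB9, SEL1L a, EDEM1 and DNAJC3 a and b, with dye terms between -0.14 and 0.17 and no call, were less bright.

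**Figure D4:**
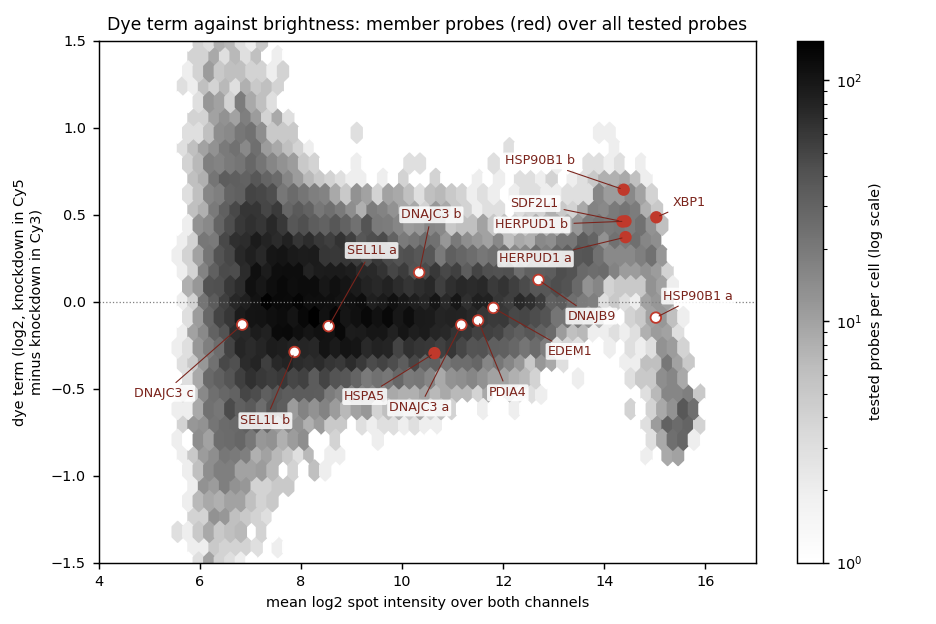
Dye term (log2 ratio with the knockdown in Cy5 minus that with it in Cy3) against mean log2 spot intensity, for all 28259 tested probes (grey, log colour scale) and the 15 ER probes (red outline, filled where called). The 5 filled probes above 0 lie at intensities of 14 or more, and the filled probe below 0 is HSPA5.

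Other genes of the pathway were read from a list of 84, of which 77 had a tested probe, each taken by its brightest. Further tested probes of some genes, such as EDEM3, SEC63, ERO1A, QSOX1 and SEC62, are not shown. A gene's value below is therefore that of a single probe. With siRNA 1, 28 of the 77 were called higher and 7 lower, where 11.6% and 11.3% of all tested probes were. With siRNA 2 it was 17 and 6 (10.5% and 9.74% of all probes), and with siRNA 3 it was 17 and 8 (9.9% and 10.1%). The lower calls were near the share over all probes with each siRNA. The median estimates of the 77 were 0.14, 0.05 and 0.09, below those of the 15 probes. Across siRNAs 0 were called. The group counts of the reported fit that follow are to be read against the same shares, and most of them shrank with median centring, as given for each group. Calls over all 28259 tested probes moved too. With median centring they were 1538 higher and 3472 lower with siRNA 1, 1099 and 1111 with siRNA 2, and 806 and 2525 with siRNA 3. Without the dye term they were 1869 and 1518 with siRNA 1 and 1359 and 1200 with siRNA 2. Of the pathway genes named below, EIF2AK3 (-0.29), ATF4 (0.40), DNAJC10 (-0.34), FKBP14 (0.54) and ERO1B (0.27) had a called dye term. So did QSOX1 (-0.20), SELENOS (0.30), SSR3 (-0.41) and SEC62 (0.35), and the remaining named pathway genes did not.

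Sensors and transcription factors (13 measured) had 6 called higher and 1 lower with siRNA 1, 4 and 2 with siRNA 2, and 3 and 1 with siRNA 3. Median centring left 2 higher and 1 lower with siRNA 1 and 1 of each with siRNA 3, and omitting the dye term left 1 of each with siRNA 2. DDIT3 (CHOP), the factor induced late in the response, rose with every siRNA, at 1.02, 0.61 and 0.40 (adjusted p of 0.000177, 0.000751 and 0.00305). EIF2AK3, the sensor kinase, rose with siRNA 1 and 3 (0.65 and 0.57), and had 0.06 with siRNA 2 (adjusted p = 0.55). EIF2S1, the translation factor subunit that EIF2AK3 phosphorylates, likewise rose with siRNA 1 (0.50) and siRNA 3 (0.45) and had 0.22 with siRNA 2 (adjusted p = 0.0635). ATF4, the transcription factor made when that subunit is phosphorylated, rose with siRNA 1 (0.48) and siRNA 2 (0.23) and had -0.04 with siRNA 3. Of the other 2 sensors, ERN1 rose with siRNA 1 alone (0.30, adjusted p = 0.0335), and ATF6 rose with siRNA 1 and 2 (0.34 and 0.32) and had -0.26 with siRNA 3 (adjusted p = 0.061).

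Other chaperones and folding factors (15 measured) had 6, 3 and 3 called higher and 1, 0 and 1 lower with siRNA 1, 2 and 3. With siRNA 1 these became 0 higher and 1 lower with median centring, 1 of each with the authors' ratio, and 1 higher and 0 lower without the dye term. With siRNA 2 there were 0 calls with median centring or without the dye term, and with siRNA 3 median centring left 1. SEC63, a J-domain protein of the translocation channel, was called higher with all 3 siRNAs (0.34, 0.18 and 0.39). Its siRNA 2 call had an adjusted p of 0.036. DNAJC10, a J-domain reductase, was called higher with siRNA 1 and 3 (0.35 and 0.66) and had 0.20 with siRNA 2 (adjusted p = 0.0549). The prolyl isomerase FKBP14 was called higher with siRNA 1 and 2 (0.33 and 0.28) and had 0.03 with siRNA 3. Its dye term of 0.54 exceeded these estimates, and its arrays ran from -0.29 to 0.68. The lectin chaperone CALR had 0.02, 0.04 and -0.04, none called, and HYOU1, an exchange factor of HSPA5, was called with siRNA 1 alone (0.16, adjusted p = 0.0324). With median centring SEC63, DNAJC10, FKBP14 and HYOU1 were not called higher with siRNA 1 or siRNA 2.

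Of disulfide isomerases and oxidases (11 measured), 4, 3 and 3 were called higher and 2, 1 and 2 lower. Median centring left 0 higher and 2 lower with siRNA 3, and 2 higher and 0 lower with siRNA 2. The oxidase ERO1A was called higher with every siRNA (0.80, 0.47 and 0.41), though not with siRNA 3 under median centring. The related ERO1B, on a dim probe, was called higher with siRNA 1 and 2 (0.65 and 0.45) and had 0.19 with siRNA 3. QSOX1, a secreted and Golgi sulfhydryl oxidase, was called lower with every siRNA (-0.57, -0.31 and -0.26), though not with siRNA 2 under median centring. In ER-associated degradation (22 measured), 6, 3 and 3 were called higher and 1, 3 and 2 lower, so that with siRNA 2 and 3 neither direction was far from the share over all probes. Median centring left 2 higher and 2 lower with siRNA 1, 1 and 2 with siRNA 2, and 0 and 2 with siRNA 3. The glycoprotein-trimming gene EDEM3 was called higher with all 3 (0.40, 0.32 and 0.21), though not with siRNA 3 under median centring. Its probe had a mean log2 intensity of 8.63, near the median of 8.64 over tested probes. SELENOS, which recruits VCP to the membrane, was called higher with siRNA 1 and 2 (0.62 and 0.36). VCP, the ATPase that pulls substrates out, fell with siRNA 3 (-1.08, adjusted p = 0.000314) and siRNA 2 (-0.17, adjusted p = 0.0445), and had 0.07 with siRNA 1. SYVN1 (HRD1), the ligase that SEL1L serves, had 0.11, -0.18 and 0.13, none called.

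Among translocation and glycosylation genes (16 measured), 6, 4 and 5 were called higher and 2, 0 and 2 lower. The 4 calls with siRNA 2 fell to 1 with median centring, with the authors' ratio or without the dye term, and to 1 or 2 when any siRNA 2 or siRNA 3 array, or array 1 or 3 of siRNA 1, was left out. Median centring left 2 higher and 2 lower with siRNA 1, and 1 and 2 with siRNA 3. SSR3, a subunit of the translocon-associated complex, had the highest estimate of the 77 with siRNA 1 and rose with each siRNA (1.37, 0.87 and 0.35). SEC62, of the translocation channel, also rose with each (0.62, 0.26 and 0.66). DDOST, a subunit of the oligosaccharyltransferase, fell with siRNA 1 and 3 (-0.72 and -0.30) and had 0.08 with siRNA 2.

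**Figure D5:**
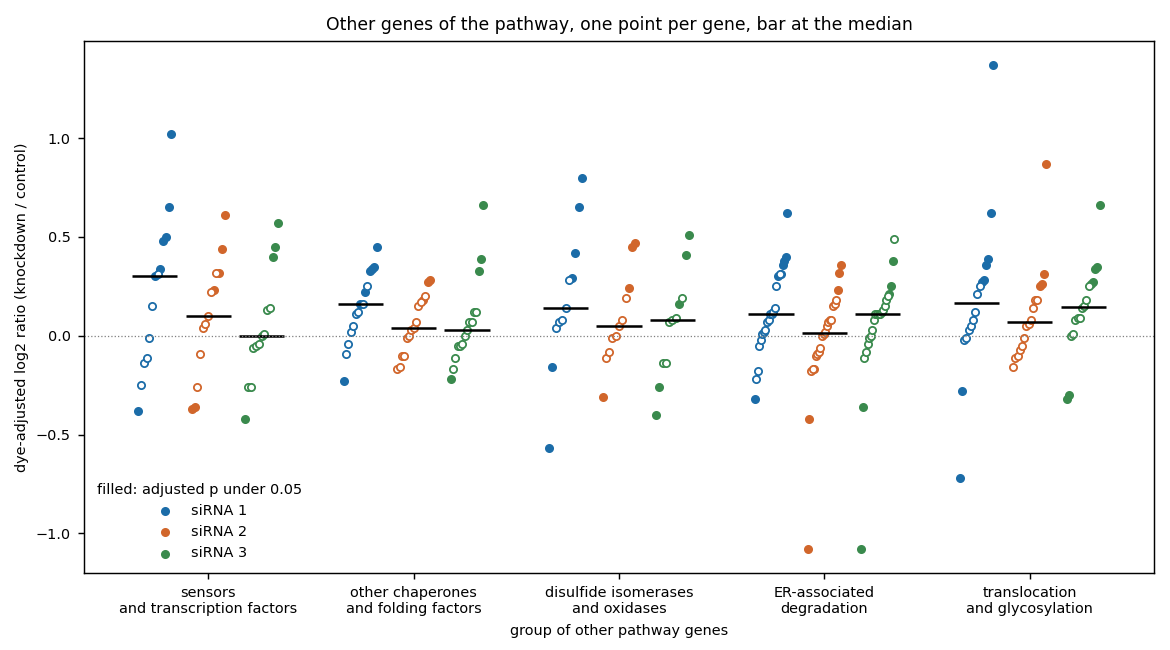
Dye-adjusted log2 ratio of knockdown over control for the 77 other pathway genes, by group and siRNA, 1 point for each gene and a bar at the group median; filled points had an adjusted p under 0.05. Group medians lie between 0.00 and 0.30, and genes are called on both sides of 0.

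The mean profile of the 10 genes over the 9 arrays, from the brightest probe of each, ran from 0.49 to 0.53 with siRNA 1, 0.17 to 0.28 with siRNA 2 and 0.13 to 0.28 with siRNA 3. The siRNA 1 arrays were the highest, and arrays of siRNA 2 and 3 overlapped. Over 17578 named probes with a ratio on all 9 arrays, the probes most like this profile belonged to TES (r = 0.975), DNAJB2 (0.954), DESI2 (0.951), HNRNPDL (0.95) and GDF15 (0.95). These correlations describe 9 arrays that fall into 3 siRNAs, and other probes of the same genes had r = 0.883 for DNAJB2, 0.755 for HNRNPDL and -0.137 for DESI2. TES, a LIM-domain protein of focal adhesions, was called higher with each siRNA (0.61, 0.20 and 0.17), as were DESI2 (1.23, 0.74 and 0.84) and the RNA-binding protein gene HNRNPDL (0.84, 0.35 and 0.15). Some of these calls were near the threshold, with an adjusted p of 0.029 and 0.0496 for TES with siRNA 2 and 3. For HNRNPDL with siRNA 3 it was 0.0394. Their values under the alternative settings are not given. GDF15, a secreted stress-induced cytokine, rose with siRNA 1 and 2 (1.01 and 0.31) and had 0.12 with siRNA 3 (adjusted p = 0.355). DNAJB2, a J-domain protein outside the ER, had a like profile at lower values, with 0.09 and -0.12 with siRNA 1 and 2, not called, and a fall with siRNA 3 (-0.22, adjusted p = 0.01).

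For background, 120 of the 188 randomised oligonucleotides met the test's requirements, and 6, 7 and 11 of them were called with siRNA 1, 2 and 3 (5%, 5.83% and 9.17%). Randomised sequences are designed to match no transcript. They were dim, with a median log2 intensity of 7.57, a level that only DNAJC3 c among the ER probes was below. Because RNA was measured in whole cultures, a higher level in all cells cannot be told apart from a change in some of them.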

How the data were processed

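RNA of TRMT12 siRNA and control siRNA SKbr3 cells was compared on 9 two-colour arrays, 3 for each siRNA with 1 dye swap. Per the file headers and values, the authors deposited each spot's background-subtracted mean intensity in either channel, a calibrated ratio (knockdown over control divided by a factor per array) and a spot quality fraction from 0 to 1. For the image program, scanner and build: not given in the sources used here. A further deposited table held log2 values. On the Cy5 arrays they matched the log of that ratio to within 0.001, on the swapped arrays its negative, with column medians of -0.0578, -0.103 and -0.154 (siRNA 1), -0.258, -0.207 and -0.0438 (siRNA 2) and -0.103, 0.0421 and -0.0467 (siRNA 3). The series text says that the swapped columns were already exchanged, and in that direction, used here, TRMT12 fell on each of the 9 arrays.

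Because the intensities were already background-subtracted, none was added, whereas normexp is usual for uncorrected values. Log2 ratios of spots with both channels above a floor of 1 were normalised by loess within each array (limma 3.58.1, R 4.3.3; 960 blank spots at weight 0). Probes had to exceed 2 background standard deviations in a channel on at least 6 arrays (30691) and give a ratio with either dye orientation for each siRNA (28259). The 9-array fit had a coefficient for each siRNA and for the dye. Across siRNAs, limma's moderated test set 3 dye-balanced values against 0. Adjusted p-values are Benjamini-Hochberg over all tested probes. The control's own spread between cultures is left out of the ratios. Names came from the platform annotation or transcript accession, updated through the gene table of GRCh38.p14. Of 35328 probes, 21568 had a current platform symbol, 110 an old one and 2211 a name by accession, 1025 matched more than 1 gene, 171 were named differently by these sources, and 10243 were unnamed.

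The genes, the pathway list and the alternatives were chosen with earlier results of these data known. All probes of the 10 genes are given. From each pathway group up to 3 called genes with the highest absolute mean over siRNAs are named, plus genes named for their role, and the 5 genes with profiles most like the mean. Alternatives were median centring, the authors' ratio, normexp, stricter or no signal filter, leaving out spots of quality under 0.5, no dye term, the Cy5 arrays only and leaving out each array. On simulated data of 24662 probes, 100 were given a log2 change of 0.5 and 100 a log2 change of 1. Each change was the same on all arrays and siRNAs. The fits recovered 53% to 57% of the changes of 0.5 and 78% to 82% of those of 1, with 2 to 13 false calls. Noise was drawn independently for each array, so spread between siRNAs and error shared by arrays were left out. Recovery under such spread was not tested. The number of arrays limits the precision.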

Additional observations from a re-analysis of the deposited data

Results flagged for a closer look

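These differences between siRNAs passed the test of the difference itself, an effect of 1 TRMT12 siRNA against that of another in the same fit (limma, adjusted over all probes). HSP90B1 b was lower with siRNA 3 than with siRNA 1 by a difference of -0.72 (SE 0.0863, adjusted p = 0.00862) and than with siRNA 2 by -0.73 (adjusted p = 0.00771), and its dye term was 0.64. The J-domain co-chaperones were lower with siRNA 3 than with siRNA 1: DNAJB9 by -0.53 (adjusted p = 0.0121), DNAJC3 a by -0.58 (adjusted p = 0.0306) and DNAJC3 b by -0.64 (adjusted p = 0.00732). DNAJC3 b was also lower with siRNA 3 than with siRNA 2 (-0.31, adjusted p = 0.0419). SEL1L a was lower with siRNA 2 than with siRNA 1 (-0.46, adjusted p = 0.0473), a call that was lost without any 1 of the 9 arrays, with median centring, with the authors' ratio, without the dye term and on the Cy5 arrays alone. HERPUD1 a was lower with siRNA 3 than with siRNA 1 (-0.42, adjusted p = 0.0431). SDF2L1 was lower with siRNA 3 than with siRNA 1 (-0.56, adjusted p = 0.00663) and siRNA 2 (-0.37, adjusted p = 0.0149). With median centring, or on the Cy5 arrays alone, none of the 15 probes had a called difference between siRNAs. Few of the 28259 tested probes had one in these settings. Median centring gave 12 for siRNA 2 minus siRNA 1 and 67 for siRNA 3 minus siRNA 1. For siRNA 3 minus siRNA 2 it gave 61. On the Cy5 arrays alone these were 16, 0 and 26 in the same order. The hybridisations may be technical, so a difference between siRNAs and a difference between cultures cannot be told apart. Groups of 3 arrays are too small for a test of single outlying arrays.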

How the results depend on the processing

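No paired analysis was possible because the labels carry no replicate numbers shared across siRNAs. TRMT12 across siRNAs lost its call with the authors' ratio (-2.60, adjusted p = 0.0532) and without array 3 of siRNA 2 (-2.57, adjusted p = 0.0562), and lay between -2.57 and -2.52 over the left-out arrays. The count of ER probes called depended on the scaling. With median centring it was 6 of 15 with siRNA 1 (12 in the reported fit), 4 with siRNA 2 (8 reported) and 2 with siRNA 3 (8 reported), and 0 for each difference between siRNAs, with 3 dye terms. With the authors' ratio it was 5 with siRNA 2, 5 with siRNA 3, 0 for siRNA 2 minus siRNA 1 and 1 for siRNA 3 minus siRNA 2. With no dye term it was 4 with siRNA 2, 3 with siRNA 3, 0 for siRNA 2 minus siRNA 1, 1 for siRNA 3 minus siRNA 1 and 0 for siRNA 3 minus siRNA 2. On the Cy5 arrays alone all 3 differences had 0. All tested probes had 740 calls for siRNA 2 minus siRNA 1 and 2618 for siRNA 3 minus siRNA 1 in the reported fit. For siRNA 3 minus siRNA 2 it was 2875. In the same order these became 12, 67 and 61 with median centring and 103, 674 and 981 with the authors' ratio. They were 72, 403 and 460 with no dye term and 16, 0 and 26 on the Cy5 arrays. Across siRNAs, 3 probes passed with normexp (all tested probes 1076), 3 of 13 tested with signal in both channels on all arrays (all 1589) and 4 of 14 without low-quality spots (all 1528), against 0 reported (all 1). Under these 3 settings siRNA 2 minus siRNA 1 had 4, 3 and 6 calls, all lower (all tested probes 1088, 1667 and 2080), and without low-quality spots siRNA 3 minus siRNA 2 had 5, 1 higher and 4 lower (all 4557).

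Leaving out 1 array gave 8 to 13 calls with siRNA 1, 4 to 7 with siRNA 2 and 5 to 8 with siRNA 3, while over all tested probes it gave 2295 to 7707, 3198 to 4744 and 2248 to 6474. The count with siRNA 2 fell to 5, 5 and 4 without its arrays 1, 2 and 3, and that with siRNA 3 to 5 without its array 1 or 2. Across siRNAs it was 0 throughout. For siRNA 3 minus siRNA 1 the range was 2 to 6, with 3 without array 1 or 3 of siRNA 1 or array 2 of siRNA 3 and 2 without array 1 of siRNA 3. For siRNA 3 minus siRNA 2 it was 1 to 2, with 1 without array 1 of siRNA 2 or any siRNA 3 array, and for siRNA 2 minus siRNA 1 it was 0 to 0 whichever of the 9 arrays was left out. Over all tested probes siRNA 3 minus siRNA 1 had 310 to 3160 calls and siRNA 3 minus siRNA 2 had 529 to 2377. For siRNA 2 minus siRNA 1 all tested probes had 40 to 595. The dye term had 3 to 6 calls, with 3 without array 3 of siRNA 2 or of siRNA 3.

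Some estimates turned sign, among them PDIA4 with siRNA 1 (0.16) and XBP1 with siRNA 2 (-0.22), which were called in the reported fit. With median centring HSP90B1 b had -0.12 with siRNA 3, DNAJC3 c -0.42 with siRNA 2, PDIA4 -0.01 with siRNA 1 and -0.08 across, and SDF2L1 -0.10 across. With the authors' ratio these were -0.08 for HSP90B1 b, -0.44 for DNAJC3 c, -0.06 for PDIA4 across and -0.08 for SDF2L1 across. On the Cy5 arrays SEL1L b had -0.08 with siRNA 1, -0.12 with siRNA 2 and -0.04 across, HERPUD1 a 0.16 with siRNA 3, XBP1 0.23, 0.05 and 0.08 with siRNA 1, siRNA 2 and across, and PDIA4 -0.02 across. With no dye term SEL1L b had -0.02 with siRNA 2 and XBP1 0.06 with siRNA 1. Left-out arrays turned HSP90B1 b with siRNA 3 (-0.08 without its array 3) and SDF2L1 across (-0.01 without array 1 of siRNA 2). Dropping the signal filter left the same 28259 probes and changed nothing. The dye term was not fitted on the Cy5 arrays alone, where it does not exist. The cause of these changes was not tested. Over all probes, no dye term gave 3387, 2559 and 2656 calls for the 3 siRNAs against 6467, 5720 and 5656. Signal over background limits DNAJC3 c and, on array 2 of siRNA 3, SEL1L a. There the control signal of SEL1L a was 26.7, under its background SD of 29.6. The lowest control signal of SEL1L b was 145.9, with a background SD of 17.8 (array 2 of siRNA 1).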
